A study of Mus musculus with 12 samples.

Results

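Immediate-early genes were followed in mouse liver, 10 of the 17097 genes that the arrays measured. They are Fos, Fosb, Jun, Junb, Jund, Egr1, Atf3, Ier2, Ier3 and Myc. The platform annotation names one of them alone for 12 of the 45141 probe sets, and of several probe sets the brightest by mean log2(intensity + 16) over the 12 arrays stands for the gene. Jun and Jund had a second probe set, and the other 8 genes had 1. The rule takes the genes by name and uses measured values only to pick the probe set, by its mean over all 12 arrays. The list was, however, drawn up with earlier results of these data known.

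Liver RNA of adult mice was hybridized to 12 Affymetrix arrays. The groups were Socs2-null and wildtype mice at 0 h, both without an operation, and Socs2-null and wildtype mice at 24 h and at 36 h after removal of 2/3 of the liver. The wildtype mice were C57BL/6 and the Socs2-null mice were kept on that background, with age-matched animals at 0 h. Each group held 2 arrays, each from a pool of liver RNA from 3 animals, so n = 2 counts pools and the p-values measure the spread between such pools. No group had a sham operation per the labels, so loss of liver tissue and surgery cannot be told apart in the time comparisons. The sources used here do not give the exon removed in the null allele, the sex of the animals or the hour of harvest.

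Immediate-early genes are those that a cell transcribes within minutes of a growth or stress signal, from factors already present and without new protein synthesis. Their products include subunits of AP-1, a dimer of FOS and JUN family proteins that binds DNA at short palindromes, and MYC, which drives genes of ribosome making and cell growth. In rodent liver several of them are induced within the first hours after partial hepatectomy, as hepatocytes leave rest. The earliest operated time here is 24 h, so that first wave was not sampled. Not all members are classical transcription factors, since Ier3 encodes a stress-inducible protein that affects cell survival and Ier2 a small nuclear protein.

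Values are linear intensities as the authors deposited them. Array medians lay between 43.5 and 52.3, and the brightest of 17 tag control probe sets, taken as background, read between 33.0 and 45.0. The Socs2 probe set read 23.1 to 29.5 on Socs2-null arrays and 116 to 546 on wildtype arrays. The hepatocyte genes Alb, Ttr and Apoa1 read 15525 to 18704, 11092 to 14594 and 14485 to 18786 over the arrays. Changes are given as log2 change ± standard error on log2(intensity + 16), with Benjamini-Hochberg adjusted p over all 17097 genes from limma and a threshold of 0.05. In tissue RNA, fewer cells of a type and less RNA per cell cannot be told apart.

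**Figure D1:**
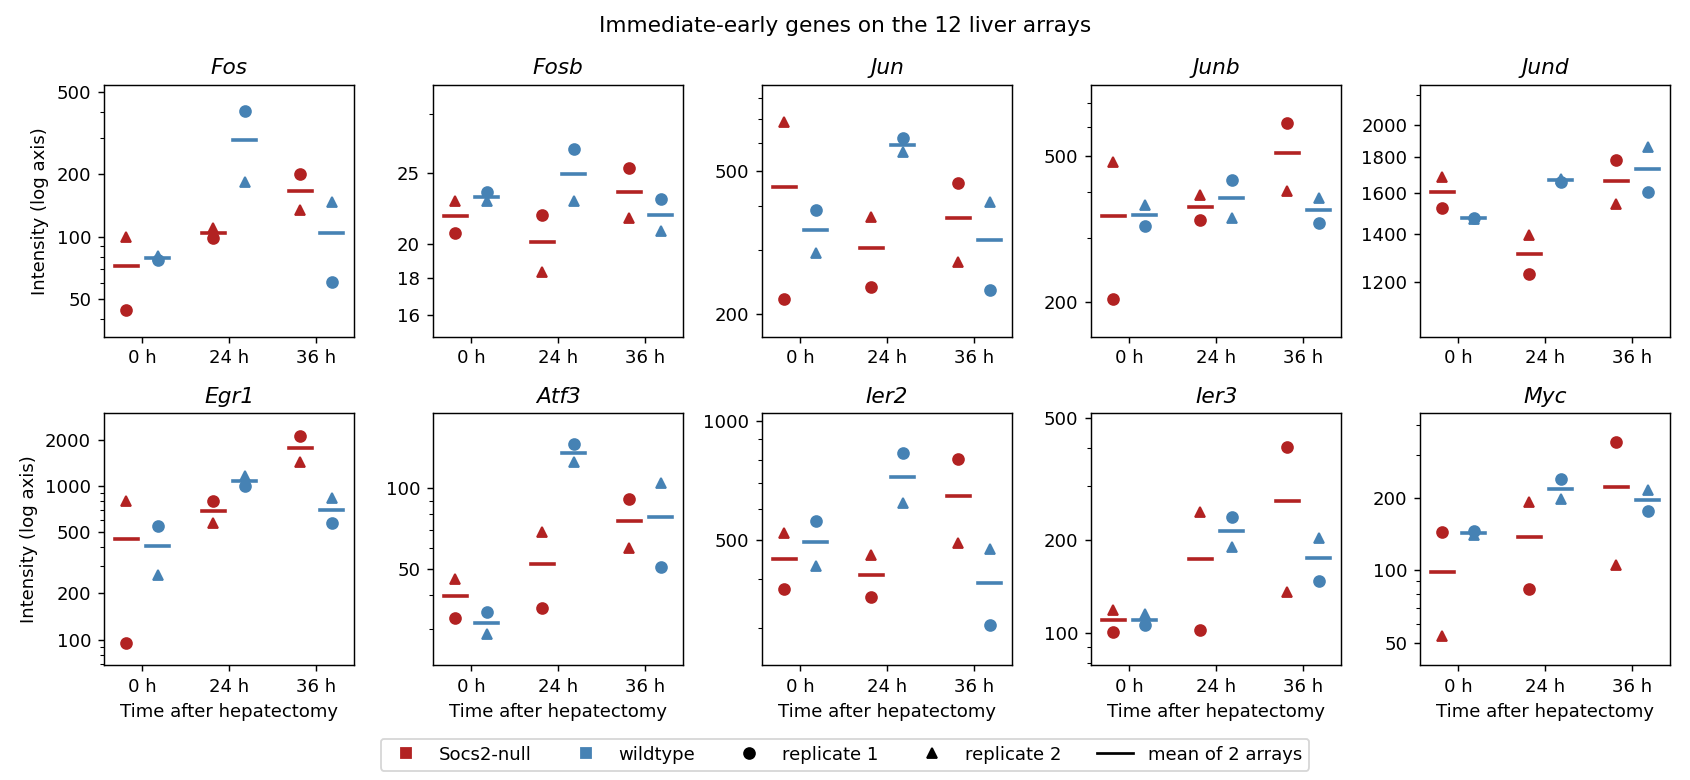
Intensity (log axis) of each gene's probe set on the 12 arrays by hours after hepatectomy, with Socs2-null in red to the left of wildtype in blue, circles for replicate 1, triangles for replicate 2 and a bar at the mean of 2 arrays. In wildtype liver Atf3 read 146 and 125 at 24 h, above all other arrays, and Egr1 reached 2108 and 1428 in Socs2-null liver at 36 h.

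Atf3 and Fos rose in wildtype liver at 24 h after hepatectomy. These 2 of 10 genes passed the threshold as higher, where 10.2 % of all genes did, and no other had an unadjusted p under 0.05, where 39.7 % of all genes had one. All 10 genes had higher means at 24 h than at 0 h, as did 39.4 % of all genes, and 8 had both 24 h arrays above both 0 h arrays, where 26.9 % of all genes did. The median log2 change of the 10 genes was 0.66, beside -0.08 over all genes.

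Atf3 encodes a stress-induced partner of AP-1 proteins. In wildtype liver it read 146 and 125 at 24 h, against 34.6 and 28.6 at 0 h. Both 0 h arrays lay under their tag control background, so the rise was at least 3.19-fold (log2 change 1.67 ± 0.30, adjusted p = 0.00444). Fos, the AP-1 subunit that pairs with JUN proteins, read 404 and 183 at 24 h, against 77.6 and 80.8 at 0 h. The groups did not overlap, and the mean of 294 ± 156 at 24 h set against 79.2 ± 2.26 at 0 h (SD, n = 2 pools each) shows how far the 24 h arrays lay from each other. The change was 1.60 ± 0.46 (adjusted p = 0.0321). It lost its call without 1 array in 5 cases, with an adjusted p of 0.163 where wildtype 24 h replicate 1 was left out, of 0.122 and 0.12 for wildtype 0 h replicates 1 and 2, and of 0.0503 for either Socs2-null 24 h array. The Atf3 call held without each array in turn, with adjusted p of at most 0.0412 over the alternatives that tested it.

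Other lists moved in the same comparison. Of all genes 39.4 % had higher means there, 10.2 % rose past the threshold and 39.7 % had an unadjusted p under 0.05 in limma. The share of all genes that fell past the threshold is not given here, so the falls have no share beside them. All 10 heat shock genes, which encode protein chaperones, had higher means in wildtype liver at 24 h and 5 rose, with sums of 29577 to 30185 at 24 h against 16774 to 20093 at 0 h. Of 11 macrophage markers 2 rose and 2 fell, with sums of 7256 to 7346 at 24 h against 6894 to 7459 at 0 h. The scavenger receptor gene Marco rose by 2.82 ± 0.28 (adjusted p = 0.000229) and Cd68 by 0.98 ± 0.15 (adjusted p = 0.00194). Clec4f was lower at -0.66 ± 0.13 (adjusted p = 0.00516), and Csf1r at -0.58 ± 0.11 (adjusted p = 0.00356). Of 10 stellate and fibroblast markers 1 rose and 3 fell, with sums of 4134 to 4302 at 24 h against 4530 to 4668 at 0 h. The smooth muscle actin gene Acta2 was the one that rose, at 1.17 ± 0.14 (adjusted p = 0.000402). Means were lower for 7 of the 10, such as Lrat with 125 and 151 at 24 h against 244 and 329 at 0 h. Of 3 erythroid markers 2 fell, the heme synthesis gene Alas2 by 1.21 and the globin gene Hba-a1 by 1.10 on the log2 scale. Of the hepatocyte, endothelial and lymphocyte markers 2 of 9, 2 of 9 and 3 of 10 fell and none rose, and none of 8 neutrophil and 5 cholangiocyte markers passed in limma, 1 of each with an unadjusted p under 0.05. Their part in the rise of Atf3 and Fos was not tested.

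The promoters of Fos and Atf3, the genes that passed the test, and of Jun, whose product pairs with both, are shown from 250 bases before to 50 bases after the start of transcription, 5′ to 3′ on the gene's strand, as RefSeq gives them in GRCm38.p6. Capitals mark matches to the motifs searched. Fos is shown from chr12:85473640-85473939 (plus strand), Atf3 from chr1:191183284-191183583 (minus strand) and Jun from chr4:95052173-95052472 (minus strand).
Fos: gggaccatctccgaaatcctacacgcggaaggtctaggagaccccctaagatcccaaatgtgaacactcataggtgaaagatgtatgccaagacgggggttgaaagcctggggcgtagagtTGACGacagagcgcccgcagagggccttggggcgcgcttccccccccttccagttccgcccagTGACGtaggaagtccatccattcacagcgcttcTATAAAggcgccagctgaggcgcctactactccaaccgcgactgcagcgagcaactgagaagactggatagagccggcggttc
Atf3: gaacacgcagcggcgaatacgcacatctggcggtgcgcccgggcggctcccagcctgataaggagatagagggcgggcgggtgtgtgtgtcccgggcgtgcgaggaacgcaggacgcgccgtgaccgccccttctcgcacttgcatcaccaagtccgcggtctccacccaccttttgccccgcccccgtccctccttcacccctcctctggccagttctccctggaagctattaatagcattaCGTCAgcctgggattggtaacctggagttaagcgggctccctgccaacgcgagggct
Jun: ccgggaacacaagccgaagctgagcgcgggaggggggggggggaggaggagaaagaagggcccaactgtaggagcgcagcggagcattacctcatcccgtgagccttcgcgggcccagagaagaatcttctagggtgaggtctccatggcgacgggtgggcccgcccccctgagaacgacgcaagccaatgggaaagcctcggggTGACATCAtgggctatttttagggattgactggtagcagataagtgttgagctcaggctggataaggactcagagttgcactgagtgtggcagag
Counted with -1 as the base before the start and 1 as the start, Fos holds TGACG at -129 to -125 and at -66 to -62 and TATAAA at -33 to -28. Atf3 holds TGACG on the other strand at -7 to -3, and Jun holds TGACATCA at -45 to -38, a variant AP-1 site.

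Promoters of 7 of the 10 genes were searched, without Egr1, Ier2 and Myc. Any promoter on chromosome 18, where Egr1 lies, was left out of the 7 but kept in the shares of all promoters. Of the 7, 4 held the core TGACG on either strand (Fos, Fosb, Junb and Atf3), as did 20.8 % of the 32851 promoters of the same length. The variant TGACATCA or TGATGTCA stood in 1 (Jun) and in 3.62 % of all promoters, and TATAAA on the gene's strand in 2 (Fos and Junb) and in 8.32 % of all. The Junb match to TATAAA lies at 1 to 6, at the start itself, and that of Fos at -33 to -28, before the start. The full site TGACGTCA, which contains that core, TGANTCA and the CArG box had no match in the 7 windows, beside 1.79 %, 7.81 % and 1.63 % of all promoters. Sites farther than 250 bases before the start, or near Egr1, Ier2 and Myc, were not searched. A match is a match of letters and no measurement of binding.

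Another 6 genes had both wildtype arrays at 24 h above both at 0 h, but none passed the threshold. With only the 4 wildtype arrays compared in the fit, 5 of them passed, Jun with an adjusted p of 0.00483, Egr1 with 0.0262, Ier2 with 0.0485, Ier3 with 0.00239 and Myc with 0.0115. Egr1 also passed without Socs2-null 0 h replicate 1 (adjusted p = 0.0162) or replicate 2 (adjusted p = 0.0163), and Ier3 with the level of the hybridization controls as a covariate (adjusted p = 0.0232). Jun read 616 and 566 at 24 h, against 389 and 296 at 0 h (log2 change 0.77 ± 0.49, adjusted p = 0.274). Egr1, a zinc finger factor of growth signalling, read 996 and 1164 at 24 h, against 549 and 264 at 0 h (1.46 ± 0.81, adjusted p = 0.219). The Egr1 groups stood apart, yet the 0 h pools lay 1.01 apart on the log2 scale. Ier3 read 238 and 191 at 24 h, against 106 and 115 at 0 h (0.86 ± 0.47, adjusted p = 0.207). Ier2 read 830 and 620 at 24 h, against 561 and 431 at 0 h (0.53 ± 0.28, adjusted p = 0.187). Myc, whose protein drives growth genes, read 238 and 198 at 24 h, against 146 and 140 at 0 h (0.55 ± 0.56, adjusted p = 0.503). Jund, the JUN family member that resting cells already express, differed little, with 1662 and 1676 at 24 h against 1477 and 1474 at 0 h (0.18 ± 0.12, adjusted p = 0.314).

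Junb and Fosb gave no separation. Junb read 430 and 339 at 24 h, against 322 and 369 at 0 h, and these ranges overlap (0.14 ± 0.33, adjusted p = 0.786). Fosb, a FOS relative best known from brain, read between 18.3 and 26.9 on the 12 arrays, under the tag control background on each, so its changes have no level behind them. The second probe set of Jund went the other way, with 50.8 and 60.0 in wildtype liver at 24 h against 75.2 and 82.5 at 0 h. The second probe set of Jun read 288 and 323 at 24 h, against 221 and 166 at 0 h, higher like the first.

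In wildtype liver most of the genes had lower means at 36 h than at 24 h. Of the 10 genes 9 had lower means at 36 h than at 24 h, while 51.1 % of all genes were higher, with 5 whose arrays did not overlap, where 22.8 % of all genes were lower without overlap. None passed the threshold in limma, where 0.24 % of all genes did, and 3 had an unadjusted p under 0.05, as had 14.9 % of all genes. Fos read 60.3 and 148 at 36 h, against 404 and 183 at 24 h (log2 change -1.37 ± 0.46, adjusted p = 0.232). Ier2 read 305 and 476 at 36 h, against 830 and 620 at 24 h (-0.88 ± 0.28, adjusted p = 0.204). Atf3 read 50.9 and 105 at 36 h, against 146 and 125 at 24 h (-0.75 ± 0.30, adjusted p = 0.284). In each of these 3 genes both 36 h arrays lay under both 24 h arrays. Jun had a change of -0.90 ± 0.49 and Egr1 of -0.63 ± 0.81, with adjusted p of 0.427 and 0.757. With the level of the hybridization controls as a covariate 5 of the 9 lower genes turned sign, Jun to 0.14, Junb to 0.73, Atf3 to 0.00, Ier3 to 1.40 and Myc to 1.20. These controls read 9.897 and 9.626 (log2) at 24 h and 9.206 and 9.071 at 36 h. Their level thus cannot be told apart from time in this comparison.

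Set against 0 h, wildtype liver at 36 h had 7 genes with higher means, as had 40.3 % of all genes, and 5 of them stood apart, where 24.3 % of all genes were higher without overlap. None passed the threshold, where 15.2 % of all genes passed. Atf3 alone had an unadjusted p under 0.05 in limma, as had 30.4 % of all genes. Its 50.9 and 105 stood against 34.6 and 28.6 at 0 h, a log2 change of 0.92 ± 0.30 (adjusted p = 0.0671) and at least 1.73-fold. Fos was at 0.23 ± 0.46 and Ier2 at -0.35 ± 0.28, with adjusted p of 0.768 and 0.434. The 24 h and 36 h comparisons share the 0 h arrays.

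**Figure D2:**
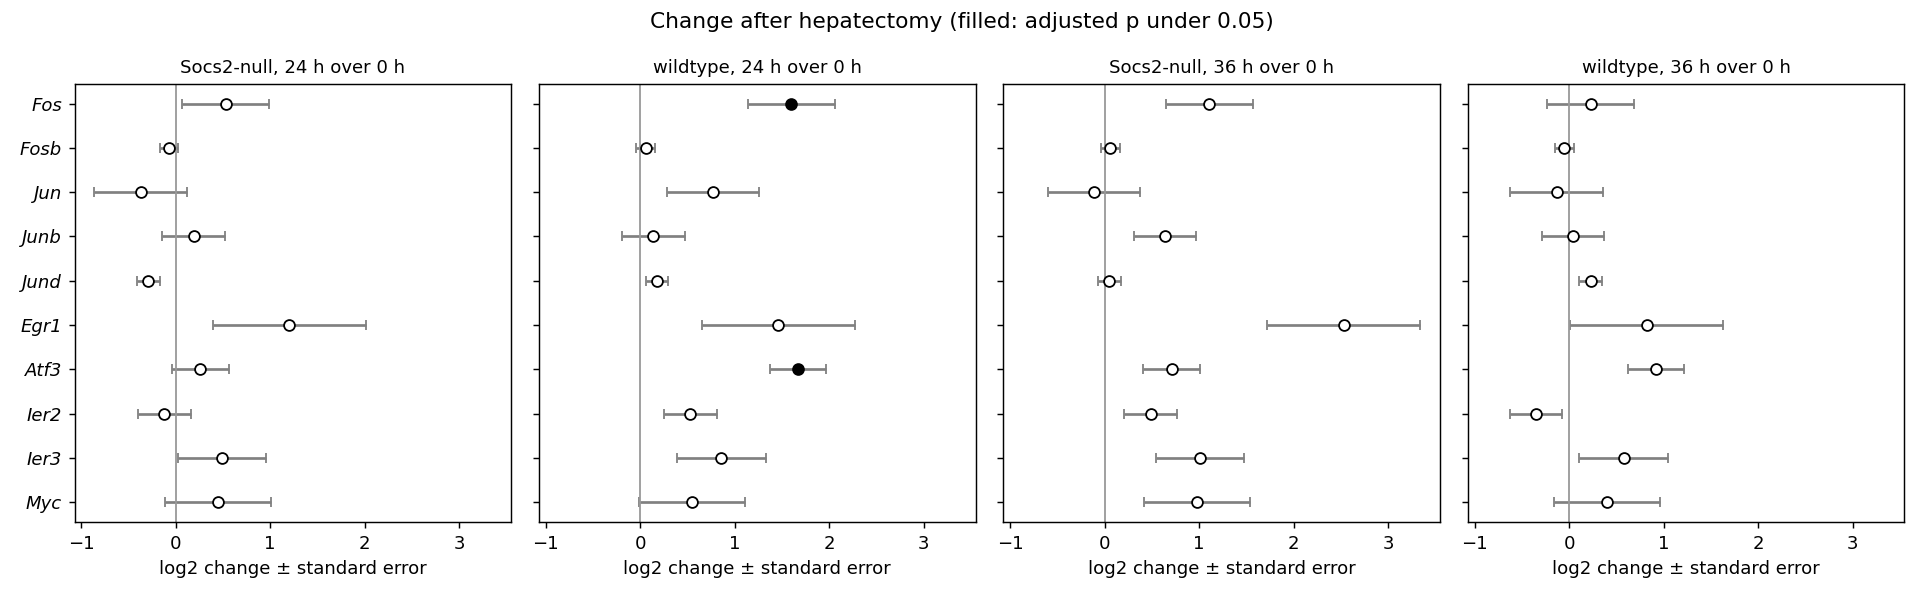
Log2 change ± standard error of the 10 genes at 24 h and at 36 h over 0 h in Socs2-null and in wildtype liver, filled where the adjusted p is under 0.05. Only Fos (1.60) and Atf3 (1.67) in wildtype liver at 24 h are filled, and Egr1 in Socs2-null liver at 36 h lies farthest to the right at 2.53.

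In Socs2-null liver at 24 h no gene passed the threshold against 0 h, where 24.2 % of all genes did. Of the 10 genes 6 had higher and 4 lower means, with 44.8 % of all genes higher, and 1 had an unadjusted p under 0.05 in limma, as had 37.7 % of all genes. That gene was Jund, the single one without overlap, where 34.5 % of all genes were lower without overlap, with 1230 and 1397 at 24 h against 1524 and 1689 at 0 h, both 24 h arrays lower (log2 change -0.29 ± 0.12, adjusted p = 0.111). The second Jund probe set was lower too, with 41.0 and 52.1 at 24 h against 72.6 and 84.5 at 0 h. Averaging the probe sets gave -0.44 with an adjusted p of 0.0223, a call.

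The genes that rose in wildtype liver overlapped between times here. Fos read 98.7 and 110 at 24 h, against 44.1 and 99.8 at 0 h (0.53 ± 0.46, adjusted p = 0.438). Atf3 read 35.9 and 68.6 at 24 h, against 33.0 and 46.2 at 0 h (0.26 ± 0.30, adjusted p = 0.562). On Socs2-null 0 h replicate 1, Fos at 44.1 and Atf3 at 33.0 lay under the tag control background of 45.0. Egr1 read 802 and 571 at 24 h, against 95.8 and 803 at 0 h (1.20 ± 0.81, adjusted p = 0.324), and both 24 h arrays lay between the 0 h arrays. Without Socs2-null 0 h replicate 2 the Egr1 change was 2.63 and passed (adjusted p = 0.00715), and without replicate 1 it was -0.24.

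At 36 h the Socs2-null livers had higher means than at 0 h for 9 of 10 genes, all but Jun, and for 46 % of all genes. Groups stood apart for 4 of them (Fos, Egr1, Atf3 and Ier3), where 28.4 % of all genes were higher without overlap. No gene passed the threshold, where 20 % of all genes did, and 3 had an unadjusted p under 0.05 in limma, as had 33.3 % of all genes. The median log2 change was 0.67, beside -0.03 over all genes.

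Egr1 came nearest. It read 2108 and 1428 in Socs2-null liver at 36 h, against 95.8 and 803 at 0 h, a log2 change of 2.53 ± 0.81 (adjusted p = 0.0637). The 36 h arrays held the highest Egr1 values of the series, and a single 0 h array held the lowest. The change was 3.97 with an adjusted p of 0.00127 without Socs2-null 0 h replicate 2, and 1.10 without replicate 1. Fos read 200 and 134 at 36 h, against 44.1 and 99.8 at 0 h (1.11 ± 0.46, adjusted p = 0.124). Atf3 read 91.2 and 60.2 at 36 h, against 33.0 and 46.2 at 0 h (0.71 ± 0.30, adjusted p = 0.128). The 0 h readings of 44.1 for Fos and 33.0 for Atf3 lay under background.

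Myc and Ier3 were spread most widely between the 36 h pools. Ier3 read 402 and 136 at 36 h, against 101 and 119 at 0 h (1.01 ± 0.47, adjusted p = 0.171). Myc read 339 and 105 at 36 h, against 144 and 53.3 at 0 h, and Junb read 618 and 402 at 36 h, against 204 and 483 at 0 h. Both overlapped, with log2 changes of 0.98 ± 0.56 and 0.64 ± 0.33 (adjusted p = 0.265 and 0.209). Without Socs2-null 36 h replicate 2 the Ier3 change was 1.74 (adjusted p = 0.0176), and without Socs2-null 0 h replicate 2 Junb was at 1.23 (adjusted p = 0.019).

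From 24 h to 36 h the genotypes ran in opposite directions by their means. In Socs2-null liver all 10 genes were higher at 36 h than at 24 h, as were 53.7 % of all genes, and 5 were so without overlap, where 19.1 % of all genes were higher without overlap. None passed in limma, where 0.00585 % of all genes did, and Jund alone had an unadjusted p under 0.05, as had 7.18 % of all genes. Jund read 1785 and 1544 at 36 h, against 1230 and 1397 at 24 h (log2 change 0.34 ± 0.12, adjusted p = 0.621). Ier2 read 804 and 494 at 36 h, against 360 and 459 at 24 h (0.61 ± 0.28, adjusted p = 0.697). Egr1 had a change of 1.34 ± 0.81. The opposite directions did not hold for every gene. With the level of the hybridization controls as a covariate, Jun (0.14), Junb (0.73), Ier3 (1.40) and Myc (1.20) were higher at 36 h in wildtype liver too. Atf3 was there at 0.00, while Fos, Fosb, Egr1 and Ier2 stayed lower. With an array left out, the Socs2-null change reached -0.09 for Jun, -0.21 for Ier3 and -0.25 for Myc, and the other genes stayed higher. The difference between genotypes in this step was not tested.

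At 24 h after hepatectomy the means of all 10 genes were lower in Socs2-null than in wildtype liver, and none of them passed the threshold. Of all genes 45.9 % were higher. Both Socs2-null arrays lay below both wildtype arrays for 8 genes, where 19.1 % of all genes were lower without overlap. Fosb, under background on each array, is among the 8. In limma 0.0117 % of all genes passed, and 4 of the 10 had an unadjusted p under 0.05, as had 8.24 % of all genes. The median log2 change was -0.68, beside -0.02 over all genes.

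Atf3 read 35.9 and 68.6 in Socs2-null liver, against 146 and 125 in wildtype liver (log2 change -1.19 ± 0.30, unadjusted p = 0.00273, adjusted p = 0.433). By unadjusted p it ranked 101 of 17097 genes. Fos read 98.7 and 110 in Socs2-null liver, against 404 and 183 in wildtype liver (-1.26 ± 0.46, adjusted p = 0.532). Neither gene's groups overlapped. The mean of Atf3 in Socs2-null liver was 52.3 ± 23.1 at 24 h (SD, n = 2 pools), against 39.6 ± 9.4 in Socs2-null liver at 0 h and 135 ± 15.4 in wildtype liver at 24 h. The 0 h mean includes an array under background.

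Ier2 read 360 and 459 in Socs2-null liver, against 830 and 620 in wildtype liver (-0.80 ± 0.28, adjusted p = 0.509). Jund read 1230 and 1397 in Socs2-null liver, against 1662 and 1676 in wildtype liver (-0.34 ± 0.12, adjusted p = 0.509). The Jund difference is small, but its arrays varied little within groups. The second Jund probe set read 41.0 and 52.1 in Socs2-null liver, against 50.8 and 60.0 in wildtype liver, which overlap.

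Jun read 238 and 372 in Socs2-null liver, against 616 and 566 in wildtype liver (-0.95 ± 0.49, adjusted p = 0.654). Its second probe set read 155 and 233, against 288 and 323, also apart. Egr1 read 802 and 571 in Socs2-null liver, against 996 and 1164 in wildtype liver (-0.66 ± 0.81, adjusted p = 0.871). Myc read 84.1 and 191 in Socs2-null liver, against 238 and 198 in wildtype liver (-0.70 ± 0.56, adjusted p = 0.78). Ier3 and Junb overlapped between genotypes, with log2 changes of -0.38 ± 0.47 and -0.07 ± 0.33.

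Other measures at 24 h stand beside these. Hybridization control probe sets averaged 9.341 and 9.722 (log2) on the Socs2-null arrays, against 9.897 and 9.626 on the wildtype arrays, and these overlap. With their level as a covariate 8 of the 10 genes stayed lower, Atf3 at -0.91 and Fos at -0.95, while Ier3 and Junb were each at 0.24. The 10 heat shock genes summed to 24939 and 27365 in Socs2-null liver, against 29577 and 30185 in wildtype liver. None passed the threshold in limma. Of these 7 had lower means, and 4 had an unadjusted p under 0.05, where 8.24 % of all genes had one. Among the 4 was the cochaperone gene Dnajb1 at -0.64 ± 0.20.

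Among markers of other cells, the 8 neutrophil markers summed to 444 and 2000 in Socs2-null liver, against 497 to 645 in wildtype liver, with 4 higher and 4 lower. The 11 macrophage markers summed to 6731 to 9219, against 7256 to 7346, with 8 higher. The 10 stellate and fibroblast markers summed to 4293 on both Socs2-null arrays, against 4134 to 4302, with 4 higher and 6 lower and a median of -0.01. The smallest p among them was that of the smooth muscle actin gene Acta2 at -0.67 ± 0.14 (adjusted p = 0.404). The 9 endothelial markers summed to 3336 to 3451, against 3390 to 3616, with 5 higher and 4 lower. The smallest p there was that of the junction gene Pecam1 at 0.37 ± 0.11 (adjusted p = 0.456). No marker of these 4 lists passed the threshold in limma, where 0.0117 % of all genes did. In the macrophage, neutrophil, stellate and endothelial lists 0, 1, 1 and 1 had an unadjusted p under 0.05, beside 8.24 % of all genes. Their part in the result was not tested.

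**Figure D3:**
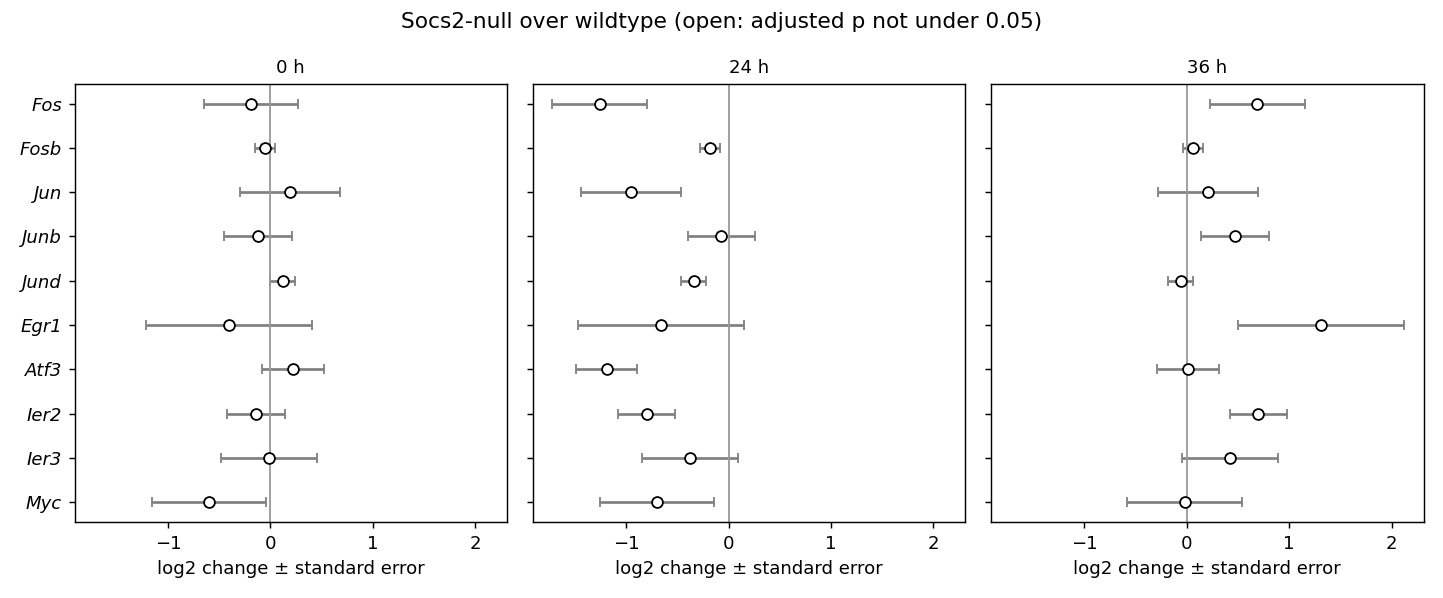
Log2 change ± standard error of the 10 genes in Socs2-null over wildtype liver at 0, 24 and 36 h after hepatectomy, with open circles where the adjusted p is not under 0.05. All points are open, all 10 lie below 0 at 24 h, and 8 lie above 0 at 36 h.

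At 36 h the means ran the other way. Of the 10 genes 8 were higher in Socs2-null than in wildtype liver, as were 47.6 % of all genes, 3 of them without overlap, where 15.2 % of all genes were higher without overlap. None passed in limma, where 0.0234 % of all genes did, and 1 had an unadjusted p under 0.05, as had 6.44 % of all genes. The median log2 change was 0.31.

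That gene was Ier2, with 804 and 494 in Socs2-null liver against 305 and 476 in wildtype liver (log2 change 0.70 ± 0.28, adjusted p = 0.73). Egr1 read 2108 and 1428 in Socs2-null liver, against 570 and 832 in wildtype liver (1.31 ± 0.81, adjusted p = 0.858). Junb read 618 and 402 in Socs2-null liver, against 328 and 384 in wildtype liver (0.47 ± 0.33, adjusted p = 0.874). In these 3 genes both Socs2-null arrays lay above both wildtype arrays. Fos overlapped, with 200 and 134 in Socs2-null liver against 60.3 and 148 in wildtype liver (0.69 ± 0.46). Atf3 had a change of 0.01 ± 0.30 and Myc of -0.02 ± 0.56.

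Before hepatectomy the genotypes showed no common direction. At 0 h 3 genes were higher and 7 lower in Socs2-null liver, with 37.9 % of all genes higher. There was 1 higher (Jund) and 1 lower (Fosb) without overlap, where 41.8 % of all genes did not overlap. No gene passed in limma, where 0 % of all genes did, and 0 of the 10 had an unadjusted p under 0.05, beside 4.95 % of all genes. The median log2 change was -0.09. Myc read 144 and 53.3 in Socs2-null liver, against 146 and 140 in wildtype liver (-0.60 ± 0.56). Egr1 read 95.8 and 803 in Socs2-null liver, against 549 and 264 in wildtype liver (-0.40 ± 0.81). Averaged over the 3 times none of the 10 genes differed past the threshold, where 0.0292 % of all genes did, and 0 had an unadjusted p under 0.05, beside 10.2 % of all genes. By that average 41.1 % of all genes were higher.

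The response to hepatectomy was also compared between genotypes, as the 24 h or 36 h change in Socs2-null liver minus that in wildtype liver. At 24 h this difference was below 0 for 9 of 10 genes, while 55.8 % of all genes lay above 0. None passed the threshold in limma, where 0 % of all genes passed, and 2 had an unadjusted p under 0.05, as had 3.78 % of all genes. They were Atf3 at -1.40 ± 0.42 (unadjusted p = 0.00797, adjusted p = 1), a value that rests on wildtype 0 h arrays under their background and is no exact difference, and Jund at -0.46 ± 0.17 (unadjusted p = 0.0217, adjusted p = 1). Fos was at -1.08 ± 0.64 and Jun at -1.14 ± 0.69. At 36 h it was above 0 for 8 of 10 genes and for 60.3 % of all genes, with Egr1 at 1.71 ± 1.14 and Ier2 at 0.85 ± 0.40, and 0 had an unadjusted p under 0.05, beside 3.74 % of all genes, while 0.00585 % of all genes passed the threshold. These differences share their arrays with the comparisons above.

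The 10 genes varied more between pools of one group than most genes did. The SD of arrays about their group means was 0.92 for Egr1, 0.653 for Myc, 0.585 for Jun, 0.56 for Ier3 and 0.545 for Fos on the log2 scale, beside a median of 0.131 over all genes. Each of these 5 exceeded at least 99.2 % of all genes. Junb (0.409), Atf3 (0.373) and Ier2 (0.35) exceeded 98 %, 97.2 % and 96.6 %. Jund and Fosb did not share this, with 0.108 and 0.0778, above 33 % and 12.4 % of all genes. Among the 1000 genes nearest in mean level, the 8 variable genes still exceeded between 93.1 % (Ier2) and 99.9 % (Egr1).

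**Figure D4:**
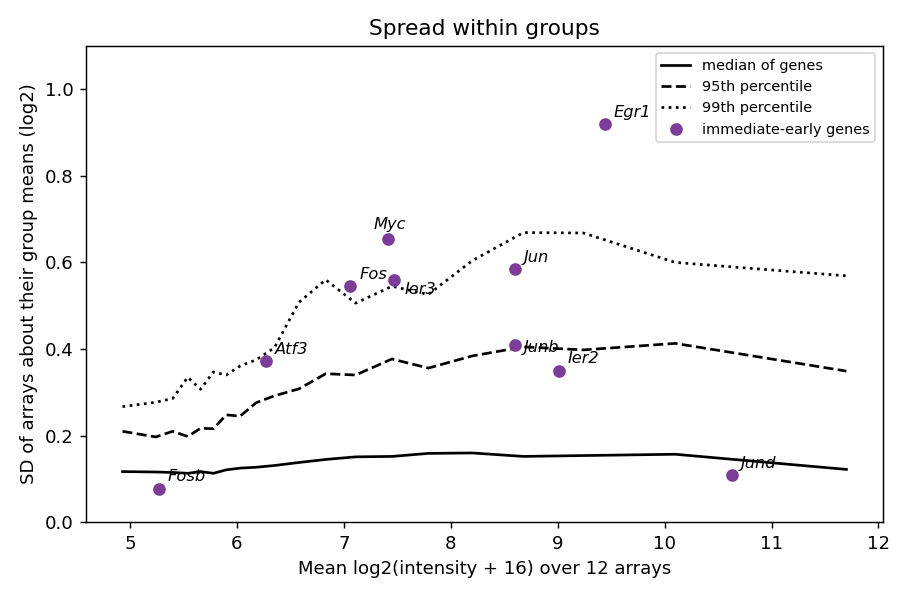
Spread of the 12 arrays about their group means (SD, log2) against the mean log2(intensity + 16), with points for the 10 genes and lines for the median, 95th and 99th percentile of all genes in bins of like level. Egr1 (0.92) and Myc (0.653) lie above the 99th percentile line, and Jund (0.108) and Fosb (0.0778) lie below the median line.

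The gaps between pools ran together across the genes. In Socs2-null liver at 36 h all 10 genes were higher on replicate 1 than on replicate 2, with a median gap of 0.58 on the log2 scale, while 52.9 % of all genes were higher there. In Socs2-null liver at 0 h 9 of 10 were lower on replicate 1, with Egr1 at -2.87 and Jun at -1.58, while 59.1 % of all genes were higher there. Myc was the exception, at 1.21 the other way, so that the pool with 95.8 for Egr1 read 144 for Myc and the pool with 803 read 53.3. In wildtype liver at 36 h 9 of 10 were lower on replicate 1, all but Fosb, with Fos at -1.10, while 55.5 % of all genes were higher. At 24 h replicate 1 was higher for 2 genes and lower for 8 in Socs2-null liver, with 40.9 % of all genes higher. Wildtype liver at 24 h had 8 higher and 2 lower, with 45.6 % of all genes higher. The unoperated wildtype pools were the most alike, with 7 genes higher and 3 lower on replicate 1, a median gap of 0.04 and 1 gene, Egr1, over 0.5. Gaps over 0.5 were found for 7 genes in Socs2-null liver at 36 h, where 6.91 % of all genes had one, and for 5 in Socs2-null liver at 0 h, where 2.26 % had one. Wildtype liver at 36 h had 5 such genes, beside 6.6 % of all genes. At 24 h there were 4 in Socs2-null liver and 1 in wildtype liver, beside 9.81 % and 3.88 % of all genes.

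**Figure D5:**
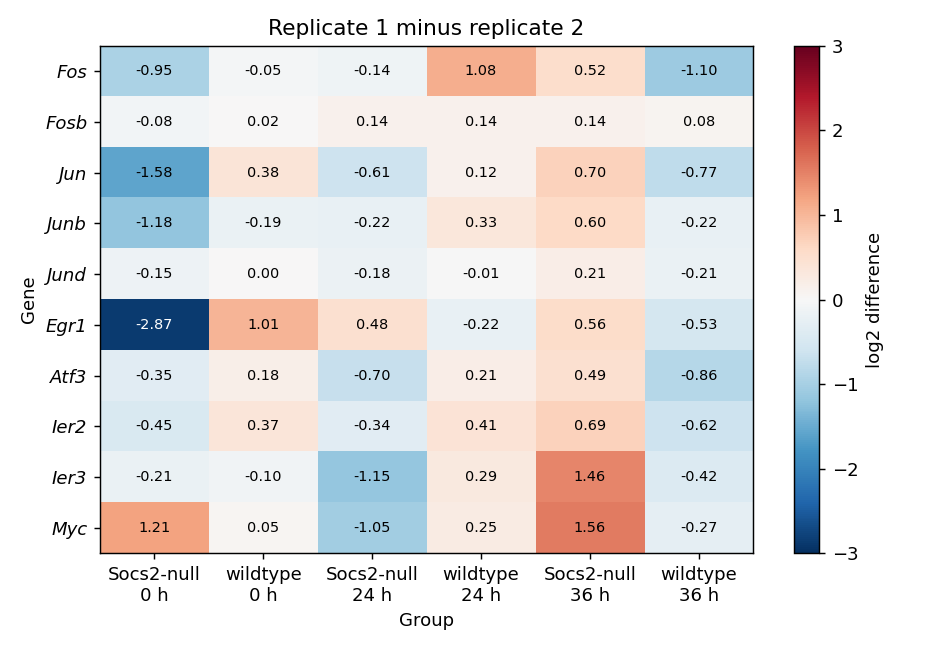
Log2 difference of replicate 1 minus replicate 2 for each gene (rows) in each group (columns, Socs2-null left of wildtype at each time), printed in the cell and coloured from -3 to 3. The Socs2-null 36 h column is above 0 for all 10 genes, and the largest gap is -2.87 for Egr1 in Socs2-null liver at 0 h.

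Over the 12 arrays the 45 pairs of genes had Pearson's r between 0.14 (Jun with Myc) and 0.87 (Fos with Atf3), with a median of 0.56. Fos and Ier2 had r = 0.83, Junb and Egr1 0.80, and Jun and Ier2 0.79. These values describe 12 arrays that share groups and pools, and they mix differences between groups with those between pools. Myc had r = 0.14 with Jun, 0.20 with Junb, 0.22 with Egr1 and 0.26 with Fosb. With Jund it had 0.45, with Fos 0.46, with Ier2 0.47, with Atf3 0.62 and with Ier3 0.79.

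Among 6715 genes with a mean log2(intensity + 16) of at least 7, those most like the mean pattern of the 10 genes over the 12 arrays were Ddx24 (r = 0.94), an RNA helicase gene, Sertad1, Dmtf1, Rusc2 and Zcchc7 (0.91 each), and Id2, Id1 and Hmox1 (0.90 each). Id1 and Id2 encode inhibitors of helix-loop-helix factors, and Hmox1 encodes the stress-induced heme oxygenase. At 24 h Id1 read 242 and 481 in Socs2-null liver, against 755 and 700 in wildtype liver, and at 36 h it read 827 and 393 in Socs2-null liver, against 448 and 895 in wildtype liver. Hmox1 read 1912 and 392 in Socs2-null liver at 36 h, a gap between pools on the same side as that of the 10 genes. Of 23 other immediate-early genes bright enough to rank, 7 had r over 0.7, as did 8.59 % of all genes ranked.

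Other immediate-early genes did not move as one. Of 37 measured, 6 rose and 4 fell in wildtype liver at 24 h, where 10.2 % of all genes rose, with a median log2 change of 0.18 beside -0.08 over all genes. Those that rose included Ccn2, a secreted matrix protein gene, at 2.07 ± 0.62 (adjusted p = 0.0406), Klf2, a zinc finger factor gene, at 0.89 ± 0.17 (adjusted p = 0.00417) and the FOS relative Fosl2 at 0.69 ± 0.12 (adjusted p = 0.0034). Those that fell included the MAP kinase phosphatase gene Dusp1 at -1.02 ± 0.30 (adjusted p = 0.0313) and the orphan receptor gene Nr4a3 at -0.95 ± 0.17 (adjusted p = 0.0035). In Socs2-null liver 8 rose and 0 fell at 36 h, where 20 % of all genes passed in either direction, among them Klf10 at 1.13, Gadd45b at 1.15, Fosl2 at 0.65 and Egr2 at 0.66.

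Between genotypes at 24 h none of the 37 passed in limma and the median was -0.01, beside -0.02 over all genes. An unadjusted p under 0.05 was found for 7, 4 higher and 3 lower, and for 8.24 % of all genes. Ccn1, another matrix protein gene, read 86.6 and 73.7 in Socs2-null liver, against 836 and 301 in wildtype liver (-2.44 ± 0.61). Phlda1 was at -1.03 ± 0.39, while Dusp1 stood at 0.81 ± 0.30.

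Partners of AP-1 split in direction. Of 21 measured, 4 rose and 3 fell in wildtype liver at 24 h, where 10.2 % of all genes rose. The stress factor genes Ddit3 at 2.23 ± 0.51 (adjusted p = 0.0154) and Atf4 at 1.14 ± 0.23 (adjusted p = 0.00678) were among those that rose, and Cebpa, a factor of resting hepatocytes, fell by 1.60 on the log2 scale (adjusted p = 0.000909). Between genotypes at 24 h none of the 21 passed in limma, and 7 had an unadjusted p under 0.05, 5 higher and 2 lower, as had 8.24 % of all genes. Atf5 read 2661 and 1675 in Socs2-null liver, against 1325 and 1357 in wildtype liver (0.65 ± 0.18, unadjusted p = 0.00469, adjusted p = 0.443). Of 22 measured kinases and factors that act upstream of the 10 genes, 4 rose and 1 fell in wildtype liver at 24 h, beside the same 10.2 % of all genes that rose. The kinase gene Mapkapk2 was at 0.71 ± 0.20 and the MAP kinase kinase gene Map2k6 fell by 1.15. Between genotypes at 24 h none of the 22 passed in limma, 1 had an unadjusted p under 0.05, where 8.24 % of all genes had one, and the median was -0.05.

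Many targets of MYC rose after hepatectomy in both genotypes, while Myc itself did not pass the test. Of 19 measured, 10 rose and 1 fell in Socs2-null liver at 24 h, and 13 rose and 1 fell in wildtype liver at 24 h, with median log2 changes of 0.78 and 0.77. Of all genes 24.2 % passed in either direction in Socs2-null liver and 10.2 % rose in wildtype liver. Cad, which starts pyrimidine synthesis, read 174 and 260 in Socs2-null liver at 24 h, against 79.9 and 61.1 at 0 h (1.42 ± 0.22, adjusted p = 0.00138). In wildtype liver it read 239 and 195 at 24 h, against 64.4 and 63.5 at 0 h (1.54 ± 0.22, adjusted p = 0.00128). The polyamine gene Odc1 rose by 1.08 and 0.77 in Socs2-null and wildtype liver, and the transferrin receptor gene Tfrc by 1.95 and 1.51. Between genotypes at 24 h 0 of the 19 passed in limma, 1 had an unadjusted p under 0.05, where 8.24 % of all genes had one, and the median was -0.04.

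Of 17 measured AP-1 targets, 5 rose and 1 fell in Socs2-null liver at 24 h, and 4 rose and 1 fell in wildtype liver at 24 h. Of all genes 24.2 % passed in either direction in Socs2-null liver and 10.2 % rose in wildtype liver. The hepatokine gene Fgf21 read 471 and 525 in Socs2-null liver at 24 h, against 27.9 and 29.4 at 0 h (3.52 ± 0.73, adjusted p = 0.0113). In wildtype liver it read 200 and 430 at 24 h, against 36.4 and 33.4 at 0 h (2.61 ± 0.73, adjusted p = 0.0341). Both genotypes shared a rise of the protease inhibitor gene Timp1 and the lectin gene Lgals3 and a fall of the growth factor gene Vegfa. Between genotypes at 24 h none of the 17 passed, 0 had an unadjusted p under 0.05 in limma, where 8.24 % of all genes had one, and the median was 0.06.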

How the data were processed

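Liver RNA was measured on 12 Affymetrix arrays in 6 groups of 2, each from 10 micrograms of total RNA pooled from 3 animals, per the labels' protocols. The deposited file holds linear intensities processed by the authors, between 1 and 24717. How they were summarized and normalized is not given in the sources used here, and the values were not scaled further. Arrays carry no read depth, so their number limits the precision.

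In the platform annotation 28898 probe sets carry 1 gene, 551 several and 15588 none, and 104 are controls. The brightest probe set stood for each of 17097 genes. The deposited intensities were tested as log2(value + 16), unfiltered, in one group-means model of all arrays with limma 3.58.1 (eBayes with trend and robust, statmod 1.5.0, R 4.3.3), two-sided and adjusted over all genes in each of 12 comparisons. The script was tested on simulated data. A group with both arrays under the brightest of 17 tag controls counts as under background, and folds against it are bounds. Replicate numbers did not pair the samples, with correlations of -0.50 to 0.35 over 15 pairs of groups.

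The members and gene lists were chosen with earlier results of these data known. All 10 genes were followed in each comparison, and from the other lists genes past the threshold or with the smallest p. Likeness was Pearson's r to the mean of the 10 centred genes, naming the 8 highest. The alternatives changed the scaling (quantile, median centring), the pseudocount (1 or 64), the genes kept (without the dimmest 25 % or 50 %), the probe sets (their mean), the fit (plain eBayes, arrayWeights, a covariate from 18 hybridization controls, a replicate block) or the arrays (the compared groups alone, each array left out). Promoters are from RefSeq (GRCm38.p6). Plots used Python 3.11.15 and matplotlib 3.10.9.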

Additional observations from a re-analysis of the deposited data

How the results depend on the processing

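Over 24 alternatives the 120 changes (10 genes in 12 comparisons) gave 2834 values. None of the 122 values that turned sign belonged to a called change. They touched 57 changes, 87 of them with an array left out. The calls moved as follows, and the cause was not tested. In wildtype liver at 24 h over 0 h the count of 2 was 1 with the dimmest 50 % dropped, which leaves Atf3 untested, 3 with the covariate (Ier3 added), 7 with only the arrays compared (all but Fosb, Junb and Jund), and 1 to 3 with an array left out. In wildtype liver at 36 h over 0 h the count of 0 was 1 (Atf3) with median centring and with arrayWeights, and 0 to 1 with an array left out. In Socs2-null liver at 24 h over 0 h it was 1 with the mean of probe sets (Jund) and with the covariate (Ier3), and 0 to 1 with an array left out. In Socs2-null liver at 36 h over 0 h it was 1 in each of 5 alternatives (Egr1 with the dimmest 25 % or 50 % dropped and plain eBayes, Ier3 with the covariate, Atf3 with only the arrays compared), and 0 to 2 with an array left out. Counts between genotypes stayed at 0 throughout. The replicate block left the count at 2 in wildtype liver at 24 h over 0 h (Fos with an adjusted p of 0.0463, Atf3 with 0.00662) and at 0 in the other comparisons.

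With an array left out, changes that turned sign ranged as follows. Socs2-null over wildtype at 0 h had Fos at -0.66 to 0.28, Jun at -0.60 to 0.98, Junb at -0.72 to 0.47, Egr1 at -1.83 to 1.04, Ier2 at -0.37 to 0.08, Ier3 at -0.12 to 0.09 and Myc at -1.20 to 0.01. At 24 h Junb ranged over -0.24 to 0.09 and Ier3 over -0.95 to 0.20. At 36 h Fosb ranged over -0.01 to 0.13, Jun over -0.18 to 0.59, Jund over -0.16 to 0.05, Atf3 over -0.42 to 0.43, Ier3 over -0.31 to 1.15 and Myc over -0.80 to 0.76. Averaged over the times Jun ranged over -0.45 to 0.08, Junb over -0.10 to 0.29, Egr1 over -0.39 to 0.57, Ier2 over -0.19 to 0.03 and Ier3 over -0.23 to 0.25. In Socs2-null liver 24 h over 0 h had Fosb at -0.14 to 0.00, Jun at -1.16 to 0.42, Junb at -0.40 to 0.79, Egr1 at -0.24 to 2.63, Atf3 at -0.09 to 0.62, Ier2 at -0.35 to 0.11, Ier3 at -0.09 to 1.06 and Myc at -0.15 to 1.05. There 36 h over 0 h had Fosb at -0.00 to 0.13, Jun at -0.90 to 0.68 and Jund at -0.05 to 0.15, and 36 h over 24 h had Jun at -0.09 to 0.61, Ier3 at -0.21 to 1.25 and Myc at -0.25 to 1.30. In wildtype liver 24 h over 0 h had Fosb at -0.01 to 0.13 and Junb at -0.03 to 0.31, 36 h over 0 h had Fos at -0.32 to 0.78, Jun at -0.51 to 0.26 and Junb at -0.07 to 0.15, and 36 h over 24 h had Junb at -0.27 to 0.06 and Jund at -0.05 to 0.15. The genotype difference in the 24 h response had Junb at -0.54 to 0.64, Egr1 at -1.70 to 1.18, Ier3 at -0.94 to 0.21 and Myc at -0.70 to 0.51. That at 36 h had Jun at -0.77 to 0.81, Atf3 at -0.64 to 0.22, Ier3 at -0.30 to 1.16 and Myc at -0.20 to 1.35.

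The covariate, which reads 9.015 to 9.225 on the 36 h arrays and 9.86 to 9.975 on the 0 h arrays apart from genotype, turned the sign for Ier3 at 0 h (0.12), Ier3 and Junb at 24 h (0.24 each), Myc at 36 h (0.02) and Ier2 averaged (0.04) in Socs2-null over wildtype. Within each genotype the covariate fell from time to time without overlap, so it cannot be told apart from time there. In Socs2-null liver it gave Jun 0.26 and Ier2 0.35 at 24 h and Jun 1.20 at 36 h over 0 h. In wildtype liver it gave Fosb 0.04, Jun 1.24 and Ier2 0.65 at 36 h over 0 h, and Jun 0.14, Junb 0.73, Atf3 0.00, Ier3 1.40 and Myc 1.20 at 36 h over 24 h. In the genotype difference in response it gave Ier3 0.12 and Myc 0.29 at 24 h and Jun -0.03 at 36 h. Quantile normalization and median centring gave 0.02 and 0.00 for Fosb and 0.02 and 0.05 for Ier3 in Socs2-null over wildtype at 0 h, 0.02 and 0.05 for Fosb in wildtype liver at 36 h over 0 h, and -0.01 and -0.04 for Jun in the 36 h response. Quantile normalization gave -0.00 for Jund in wildtype liver at 36 h over 24 h, and median centring gave 0.02 for Fosb in Socs2-null liver at 24 h over 0 h. A pseudocount of 64 gave -0.01 for Atf3 and 0.01 for Myc in Socs2-null over wildtype at 36 h and -0.01 for Jun in the 36 h response. The mean of all probe sets gave -0.05 for Jun in the 36 h response and, for Jund, -0.20 in Socs2-null liver at 36 h and -0.12 in wildtype liver at 24 h over 0 h. With 2 pools a group, and with Fosb, some Atf3 arrays and Fos on Socs2-null 0 h replicate 1 under background, the arrays limit all of these.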
